A study of Rattus norvegicus with 12 samples.

Results

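The genes for the proteins of the cytosolic ribosome were followed in rat mixed glial cultures given Th1, monocyte/macrophage (M/M) or Th2 cytokines for 6 hours. A probe set, the group of probes that reads 1 transcript on the array, was included when the array's annotation gives it a single symbol made of Rpl or Rps and a digit, or Rplp0, Rplp1, Rplp2 or Rpsa, with the kinase symbols that begin Rps6k left out. This gave 63 probe sets for 43 genes, of 8740 probe sets tested, with 29 genes of the large subunit (Rpl and Rplp0) and 14 of the small subunit (Rps and Rpsa). Rplp1 and Rplp2 were not analysed here. RNA came from 3 separate experiments on shake-off cultures from neonatal rat brain, each with 1 culture per treatment, so that there were 3 arrays per group and 12 in all, a number that limits the precision. The Th1 mixture held IL-2, IFN-γ, TNF-α and G-CSF, the M/M mixture IL-1α, IL-1β, IL-12p40 and TNF-α, and the Th2 mixture IL-5, IL-10, G-CSF and TGF-β1. By the study's methods, but not by the labels, IL-6 belonged to the M/M mixture and IL-4 to the Th2 mixture. The dose was 10 ng/ml of each cytokine, all cultures were kept in serum-poor defined medium, and control cultures got medium with no cytokine.

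Each cytosolic ribosome is built from a small subunit, which reads the messenger RNA, and a large subunit, which joins amino acids. The proteins are mostly needed in equal numbers, and their genes are among the most actively used in every growing cell, glia included. In mammals their messenger RNAs begin with a stretch of pyrimidines, the terminal oligopyrimidine motif, through which the mTOR pathway controls how many of them are translated, so that part of their known regulation does not show in RNA levels.

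The median signal of an array ranged from 24.5 to 60.98 with Th1, from 42.2 to 60.9 with M/M and from 29.1 to 58.4 with Th2 cytokines, against 26.9 to 59.1 in control cultures. The arrays were not rescaled here, and the log2 difference against control had a median over every probe set of 0.14 (Th1), 0.33 (M/M) and 0.19 (Th2). Each difference is therefore given as deposited and with every array centred on its median. All mixtures share the same 3 control arrays. Of the cell type markers measured, 7 of 7 for oligodendrocytes, 6 of 7 for astrocytes, 3 of 3 for oligodendrocyte precursors, 3 of 5 for microglia and 5 of 6 for fibroblasts lay above the median signal, against 0 of 4 for endothelium and 2 of 7 for neurons. No marker passed the test for any mixture. In RNA of mixed cultures fewer cells of a type and less RNA per cell cannot be told apart. The p-values rest on how far the differences between groups varied over the 3 experiments, pooled over all groups. Shifts shared by all arrays of an experiment are removed first.

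The ribosomal protein genes divided by signal into 36 bright and 7 dim genes, with none between percentiles 70.9 and 96.1. The bright genes, each taken by its brightest probe set, lay at or above percentile 96.1 of mean signal and read between 608 and 7531 on single arrays. The dim genes (Rps24, Rpl17, Rpl5, Rpl19l4, Rpl30, Rpl3l and Rps2-ps1) lay at or below percentile 70.9 and never read above 444. On each of the 12 arrays the median gene stood between percentiles 98.3 and 98.8, at 51.9 to 93.8 times the array median. All 63 probe sets together held 7.01% to 7.91% of the summed signal. A signal depends on the probes as well as on the RNA, so these ranks place probe sets on the array and do not order the RNAs.

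**Figure D1:**
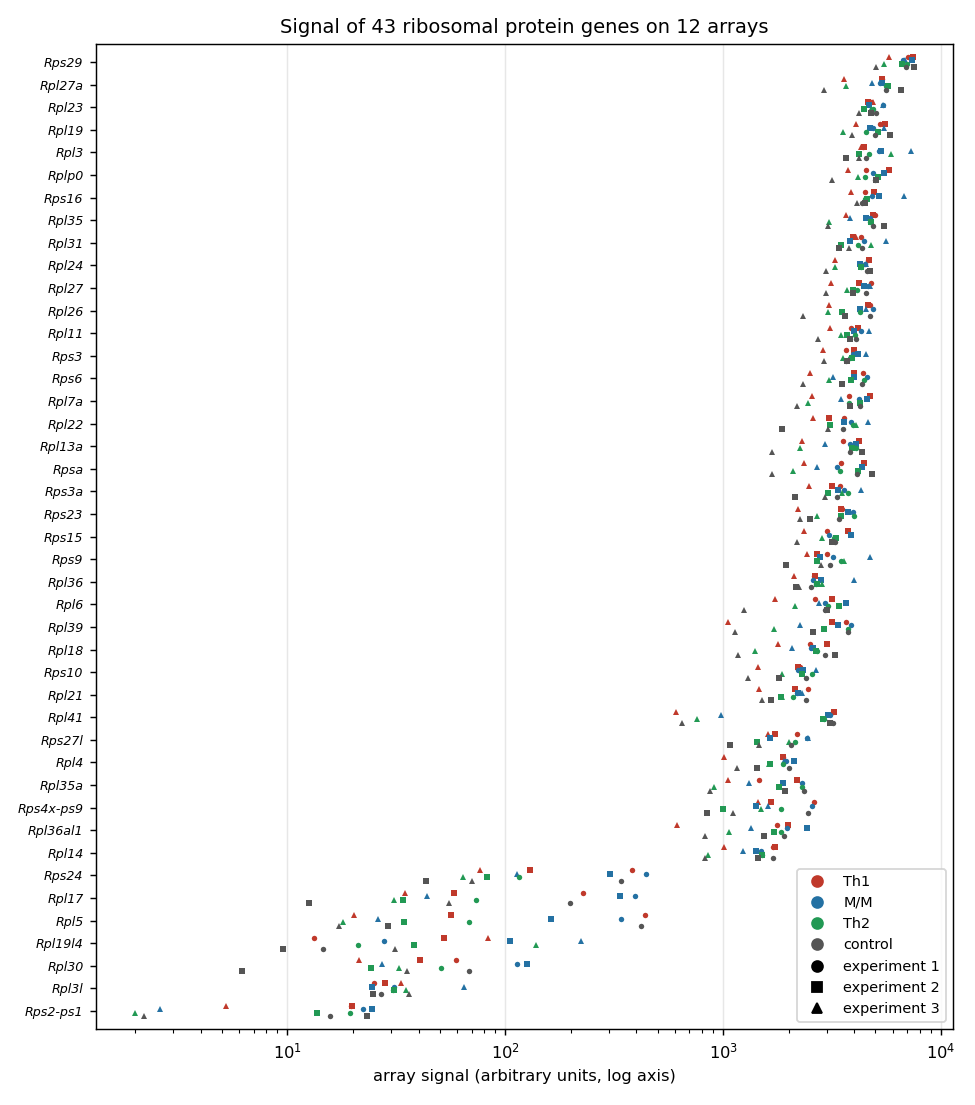
Signal (arbitrary units, log axis) of the brightest probe set of each of 43 ribosomal protein genes on 12 arrays, with colour for the group and marker shape for the experiment. The 36 bright genes read between 608 and 7531, and the 7 genes at the bottom read at most 444.

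Rps29, of the small subunit, had the highest mean signal, with 7038, 7409 and 5774 with Th1, 6719, 7320.3 and 6856 with M/M and 6959.6, 6587 and 5467 with Th2 cytokines, against 6924, 7531 and 5036 in control cultures. Rpl23, of the large subunit, varied least, with 4778, 4625 and 4867 with Th1, 5415, 4646 and 5435 with M/M and 4847, 4449.5 and 4789.8 with Th2 cytokines, against 5049, 4755 and 4187 in control cultures. Its SD over the 12 arrays was 0.11 on the log2 scale, the lowest of all probe sets as deposited, and 0.49 after centring. Rpl19 and Rpl27a, also among the 5 brightest, read 3564 to 5814 and 2904 to 6547 over the 12 arrays. The treated and control values of these 4 genes overlapped.

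The gene starts are shown because the pyrimidine stretch is the best known shared feature of these RNAs. RefSeq start regions (build GRCr8) were matched by gene ID for 36 of the 43 genes, and 50 bases on each side of the start were read on the strand of the gene. The start equalled the boundary of the gene in RefSeq for 17 of the 36. Matches that lie before the start, and so outside the annotated RNA, were counted as well. A run of at least 8 C or T bases was present in 31 of 36 genes (86.1%), against 36.8% of all 27457 start regions, and the longest run had a median of 12 bases, against 7. The letters CTTTCC occurred in 15 of 36 (41.7%), against 4.55% of all, and on the opposite strand in 1 of 36 (2.78%), against 4.47%. The letters CTTTTC occurred in 5 of 36 (13.9%), against 3.86%, and on the opposite strand in 1 of 36 (2.78%), against 3.72%. Each sequence below runs from 20 bases before the start through the first 10 of the transcript, with its longest run of C and T in capitals, and the bright genes come before the dim Rps24 and Rpl5.
Rpl19 (chr10:83519044-83519073, + strand): gagcccgcgaccagcaagCTCTTTCCTTTC
Rpl23 (chr10:83272175-83272204, - strand): cttgtactaaCTTCCTTTCTgactctttcc
Rplp0 (chr12:46718381-46718410, - strand): ctggtgaccgcaccgcaCTTCTCTCgccag
Rps15 (chr7:10068106-10068135, - strand): gcagccgctgacaccgCTTCCTTTTCCCag
Rpl35 (chr3:43165912-43165941, - strand): ggccccgCCCCTTCCTCTTTCTCTCgaacc
Rps24 (chr16:96497-96526, + strand): ggcagtgagcggTCCTCTTTTCCTCCTTTa
Rpl5 (chr14:1995216-1995245, - strand): cagccaCTCTCTTTCCCacgtcgcttgcgt
The windows of the dim Rps24 and Rpl5 thus hold runs of 17 and 11 bases, beside 8 in that of the bright Rplp0. The runs printed for Rpl5 and Rpl23 lie wholly before the annotated start, while the others above reach across it. The 5 genes without a run of 8 were Rpl3, Rpl6, Rpl11, Rps3a and Rps27l, and Rpl3 is printed for contrast.
Rpl3 (chr7:113507981-113508010, - strand): ctgcaccagcgcctgctcgaTCTCTatcgg
Such matches describe the letters of an annotated window and are no evidence of where a transcript began in these cells.

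With M/M cytokines all 43 genes had a mean log2 difference above 0 against control (78.1% of all probe sets did, and 60 of the 63 taken singly), but after centring 16 of 43 had one (37.2%), against 41% of all, and after quantile normalization 27 (62.8%), against 46.2%. The median over the genes was 0.34, beside 0.33 for all probe sets, and after centring it was -0.090, beside -0.10. After quantile normalization, which gives all arrays the same distribution of signals, it was 0.046, beside -0.040, so the direction turned with one rescaling and not with the other. The brightest 10 percent of all probe sets, where 36 of the 43 genes lie, had medians of 0.28, -0.15 after centring and -0.027 after quantile normalization. Limma called 0 of the 63 probe sets at an adjusted p under 0.05, where 0.263% of all were called. At an unadjusted p under 0.05, 23 of 63 were higher (36.5%), against 15.4% of all, and 0 were lower, against 0.584%. With centring 1 of 63 was higher at that level (1.59%), against 5.33%, and 2 were lower (3.17%), against 8.02%. Of the 43 genes, 20 were above control in 3 of 3 experiments (46.5%), against 32% of all probe sets, and 3 were after centring (6.98%), against 13.5%. For 7 genes (16.3%) the 3 M/M values lay above the 3 control values, against 7.48% of all probe sets, and after centring for 0, against 3.18%.

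The M/M differences varied with the experiment. The median over the 43 genes was 0.026, 0.22 and 0.67 in experiments 1, 2 and 3, beside -0.0017, 0.39 and 0.62 for all probe sets. After centring it was -0.015, -0.37 and 0.024, beside -0.043, -0.20 and -0.033. In experiment 2 the treated arrays had median signals of 56.1 to 60.98, against 38.4 on the control array, while the median ribosomal protein gene read 3081 to 3594 on the treated arrays, against 2991 in control. The brightest 10 percent of all probe sets had a centred median of -0.42 for M/M cytokines in that experiment. In experiment 3, B2m and Eif2ak2, described below, read 3338 and 602 with M/M and 1050 and 40.0 with Th1 cytokines. In experiments 1 and 2 both genes read higher with Th1 than with M/M cytokines. The cause of this change of order was not tested, and the means for both mixtures include these arrays.

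**Figure D2:**
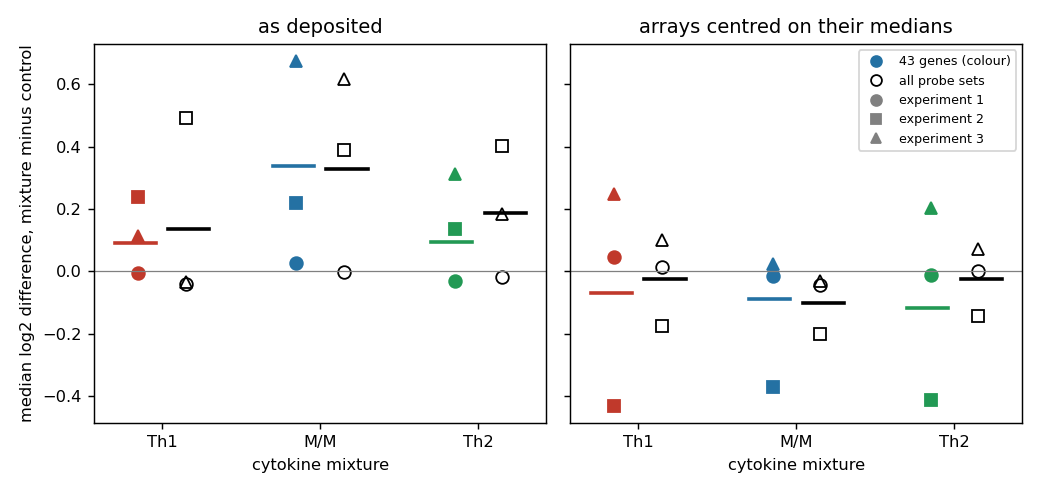
Median log2 difference from the control array of the same experiment, for 43 ribosomal protein genes (filled, in colour) and all probe sets (open), with bars for the median of the differences averaged over experiments. As deposited the M/M bars stand at 0.34 for the genes and 0.33 for all, and after centring at -0.090 and -0.10, while quantile normalization (not drawn) gave 0.046 and -0.040.

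Rpl3, which lies beside the peptide-joining centre of the large subunit, had 5170.0, 5316 and 7269.8 with M/M cytokines and 4522, 3649.6 and 4193 in control cultures. All 3 M/M values lay above the 3 control values, and the log2 difference was 0.51, SE 0.16, adjusted p = 0.184, and 0.082 after centring. Rpl22, an RNA-binding protein of the large subunit, had 3880.1, 3594 and 4606 with M/M cytokines and 3547, 1857 and 3042 in control cultures. Its log2 difference was 0.56, SE 0.19, adjusted p = 0.221, and 0.13 after centring, the highest of a bright gene. Rps23, of the decoding centre of the small subunit and chosen after its values were seen, had 3949, 3758 and 3783 with M/M cytokines and 3393, 2511 and 2251 in control cultures. All 3 M/M values again exceeded the control values, with a log2 difference of 0.52, SE 0.17, adjusted p = 0.197, and 0.089 after centring. The lowest log2 differences were those of Rpl35 (0.0045), Rpl19 (0.055) and Rpsa (0.077), which after centring were -0.42, -0.37 and -0.35.

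With Th1 cytokines 38 of 43 genes lay above 0 as deposited, against 65.4% of all probe sets, and 11 (25.6%) after centring, against 47.4%. After quantile normalization 29 did (67.4%), against 47.7%. The median was 0.090, beside 0.14 for all probe sets, and -0.069 after centring, beside -0.024, and 0.032 after quantile normalization, beside -0.018. Limma called 0 of 63 probe sets, where 0% of all were called, and at an unadjusted p under 0.05 it gave 2 of 63 higher (3.17%), against 4.75%, and 0 lower, against 0.812%. The medians within the experiments were -0.0069, 0.24 and 0.11, and 0.047, -0.43 and 0.25 after centring. Above control in 3 of 3 experiments were 6 of 43 genes (14%), against 14% of all probe sets, and after centring 4 (9.3%), against 11.2%. For 0 genes did the Th1 values all exceed the control values, against 1.54%. The highest bright gene was Rps4x-ps9, annotated as a pseudogene and chosen after its values were seen, with 2614, 1660.1 and 1449 with Th1 cytokines and 2455, 840.0 and 1114 in control cultures. Its log2 difference was 0.48, SE 0.20, adjusted p = 0.857, and 0.32 after centring, and whether the probe set also reads the parent gene was not tested. The lowest was Rpl35a, of the large subunit, with 1455, 2177 and 1049 with Th1 cytokines and 2362, 1929 and 868 in control cultures, a log2 difference of -0.084, SE 0.21, adjusted p = 0.968, and -0.24 after centring. Rpl36al1 and Rpl27a followed at -0.060 and -0.018.

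With Th2 cytokines 30 of 43 genes lay above 0 as deposited, against 69.3% of all probe sets, and 12 (27.9%) after centring, against 47.4%. After quantile normalization 25 did (58.1%), against 49.2%. The median was 0.094, beside 0.19 for all, and -0.12 after centring, beside -0.026, and 0.025 after quantile normalization, beside -0.0083. Limma called 0 of 63 probe sets, where 0.0114% of all were called, and at an unadjusted p under 0.05 it gave 2 of 63 higher (3.17%), against 6.06%, and 0 lower, against 0.686%. Above control in 3 of 3 experiments were 14 of 43 genes (32.6%), against 25%, and after centring 2 (4.65%), against 14.9%. For 1 gene (2.33%), against 2.77% of all probe sets, the Th2 values all exceeded the control values. Rpl22 was the highest bright gene, with 3944, 3081 and 4055 with Th2 cytokines and 3547, 1857 and 3042 in control cultures. Its Th2 values exceeded the control of the same experiment each time, the groups overlapped, and the log2 difference was 0.43, SE 0.19, adjusted p = 0.717, and 0.22 after centring. Rpl19 was the lowest bright gene, with 4533, 5145 and 3564 with Th2 cytokines and 4973, 5814 and 3912 in control cultures, a log2 difference of -0.15, SE 0.17, adjusted p = 0.84, and -0.36 after centring.

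**Figure D3:**
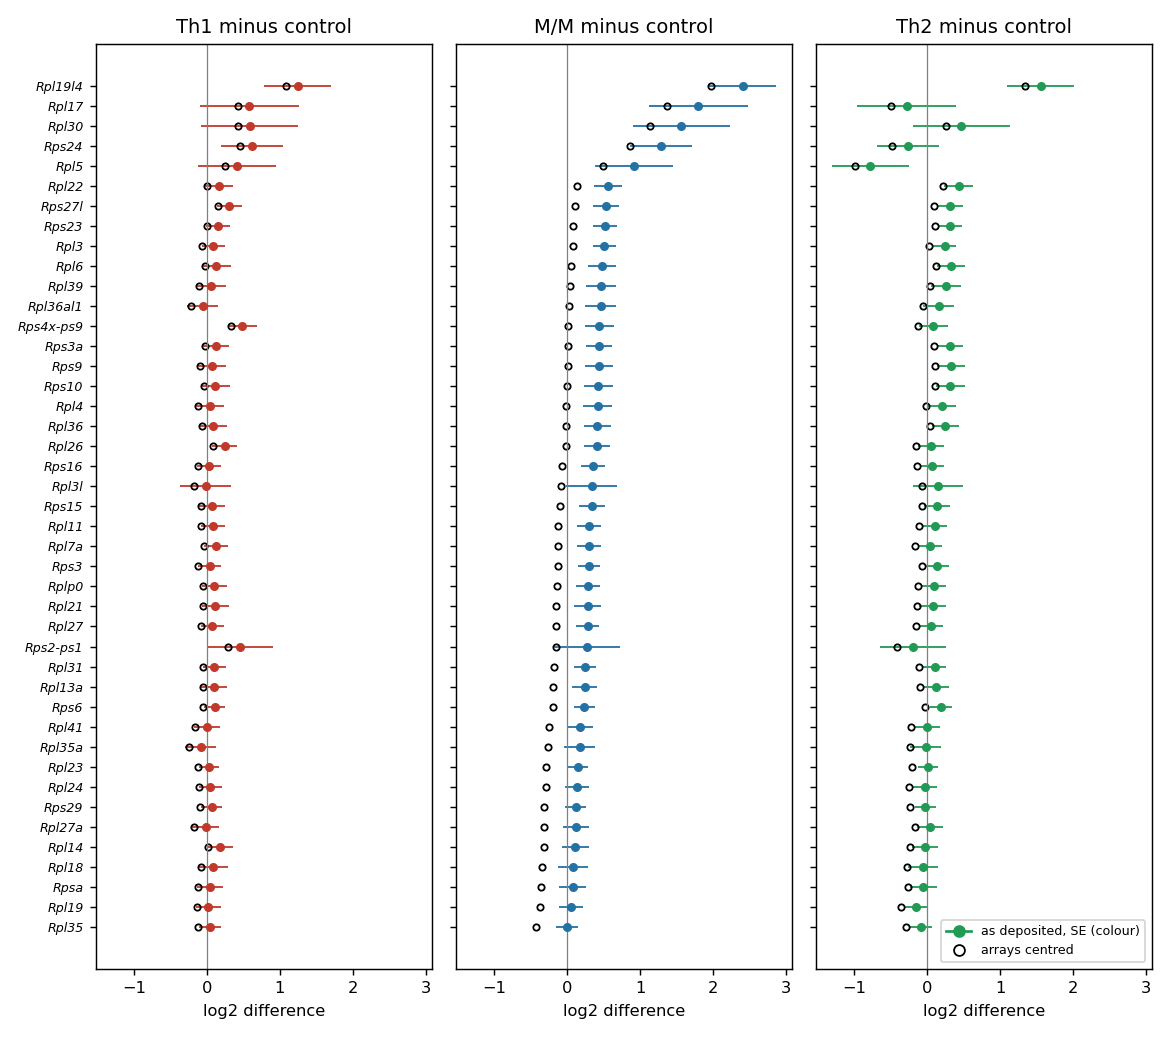
Log2 difference from control for each of 43 ribosomal protein genes with Th1, M/M and Th2 cytokines, as deposited with its SE (filled) and with arrays centred (open). All 43 M/M points lie above 0 as deposited and 16 after centring, while 27 did after quantile normalization, which is not drawn.

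Between the mixtures limma called 0 of 63 probe sets in each of the 3 comparisons, where 0% of all were called. All 43 genes were higher on average with M/M than with Th2 cytokines as deposited, against 67.9% of all probe sets, and 16 were after centring, against 39.7%. The median of that difference was 0.20, beside 0.13 for all, and -0.020 after centring, beside -0.081, and -0.026 after quantile normalization, beside -0.038. In the brightest 10 percent of all probe sets it was 0.16, -0.052 after centring and -0.040 after quantile normalization. At an unadjusted p under 0.05, 6 of 63 were higher with M/M (9.52%), against 3.18% of all. For Th1 over M/M cytokines the median was -0.22, beside -0.21, and 0.043 after centring and -0.026 after quantile normalization. For Th1 over Th2 cytokines it was -0.0030, beside -0.052, and 0.050 after centring and -0.014 after quantile normalization.

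Some ribosomal proteins have known roles beside the ribosome or at special places on it. Rplp0, the base of the stalk that binds elongation factors, had 4532, 5749.7 and 3756 with Th1, 4858, 5473 and 5449.5 with M/M and 4476, 5135 and 4178 with Th2 cytokines, against 4963, 5023 and 3171 in control cultures. Its log2 differences (Th1, M/M, Th2) were 0.10, 0.29 and 0.094, each with SE 0.17, and -0.057, -0.14 and -0.12 after centring. Rpsa, a small-subunit protein also known as a laminin receptor, had 3491, 4434 and 2351 with Th1, 3335, 4351 and 2688 with M/M and 3449, 4163 and 2089 with Th2 cytokines, against 4094, 4843 and 1676 in control cultures. Its log2 differences were 0.044, 0.077 and -0.049, each with SE 0.18, and -0.12, -0.35 and -0.26 after centring. For both genes the groups overlapped, and experiment 3 gave the lowest value of each group except for Rplp0 with M/M cytokines.

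Rpl5 and Rpl11 bind a ribosomal RNA of the large subunit together and, when free, bind Mdm2, which stabilises p53. Rpl11 had 3874, 4147 and 3098 with Th1, 4270.2, 3991 and 4658 with M/M and 4044, 3715 and 3463 with Th2 cytokines, against 4051, 3815 and 2711 in control cultures, with log2 differences of 0.083, 0.31 and 0.10 (SE 0.17) and -0.077, -0.12 and -0.11 after centring. Rpl5 was read by a dim probe set and is described with the dim genes. Rps3, a small-subunit protein also found with NF-kappaB, had 3669.7, 4004 and 2884 with Th1, 3941, 4156 and 4509 with M/M and 3818, 3918 and 3537 with Th2 cytokines, against 3661, 3694 and 2904 in control cultures. All 3 M/M values exceeded the 3 control values, and the log2 difference was 0.30, SE 0.15, adjusted p = 0.35, and -0.12 after centring.

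Rpl13a, which in human monocytes takes part in silencing translation after interferon-γ, had 3556, 4196 and 2298 with Th1 cytokines and 3802, 4349 and 1679 in control cultures, and the Th1 mixture contains interferon-γ. The groups overlapped and the log2 difference was 0.10, SE 0.18, adjusted p = 0.939, and -0.058 after centring. A dimmer probe set of Rpl13a, at percentile 96.6, had a Th1 difference of -0.11, with -0.20, -0.13 and -0.0028 in the single experiments. Rps6, the target of the ribosomal S6 kinases, had 4404, 3991 and 2503 with Th1, 4589.9, 3985 and 3183 with M/M and 4446, 3861 and 3068 with Th2 cytokines, against 4329.9, 3518 and 2320.5 in control cultures. Its log2 differences were 0.11, 0.24 and 0.19 (SE 0.14), and -0.054, -0.19 and -0.021 after centring. Rpl11, Rps3, Rpl13a and Rps6 are named for these roles, after their values were seen.

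Rpl19l4, named as a copy of Rpl19, had the highest difference for every mixture, from a dim probe set at percentile 48.6. Its signals were 13.2, 52.1 and 83.3 with Th1, 27.7, 105 and 222 with M/M and 21.1, 37.9 and 139 with Th2 cytokines, against 14.5, 9.58 and 31.3 in control cultures. The M/M value was the highest of its experiment each time, but that of experiment 1 lay below the control value of experiment 3, so the groups overlapped. The log2 difference was 2.41, SE 0.46, adjusted p = 0.0512, and 1.98 after centring. For Th1 cytokines it was 1.24, SE 0.46, adjusted p = 0.857, and 1.08 after centring, and for Th2 cytokines 1.56, SE 0.46, adjusted p = 0.642, and 1.35 after centring. Without replicate 1 the M/M difference was 3.14, adjusted p = 0.0107 by limma, and without control replicate 1 it was 3.05, adjusted p = 0.0223. How far this probe set reads Rpl19 or other copies was not tested.

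A further 5 of the 12 dim probe sets were picked, after their values were seen, because their centred signals varied together: those of Rpl17, Rpl5, Rpl30 and Rps24 and the dimmest of Rpl21. The choice itself fixes their pairwise Pearson r, which was 0.50 to 0.98 over the 12 arrays. With the 7 other dim probe sets their r ranged from -0.66 to 0.64, with a median of -0.11. The summed signal of the 5 was 1402, 376 and 200.3 with Th1, 1699, 1236 and 288 with M/M and 415, 242 and 205 with Th2 cytokines, against 1272, 130.5 and 247 in control cultures. The sum was highest with M/M cytokines in each experiment, and lowest with Th2 in experiment 1, in control in experiment 2 and with Th1 in experiment 3.

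Rpl17, of the large subunit, had 228, 58.1 and 34.6 with Th1, 394, 336 and 43.5 with M/M and 73.7, 33.8 and 30.8 with Th2 cytokines, against 198, 12.5 and 55.0 in control cultures. The M/M value was below control in experiment 3, and the log2 difference was 1.80, SE 0.67, adjusted p = 0.252, and 1.37 after centring. Rps24, of the small subunit, had 444, 304 and 113 with M/M cytokines and 340.3, 43.5 and 70.6 in control cultures. It was above control in 3 of 3 experiments, with a log2 difference of 1.29, SE 0.42, adjusted p = 0.203, and 0.86 after centring. Rpl5 had 438, 56.1 and 20.2 with Th1, 339, 163 and 26.0 with M/M and 68.3, 34.4 and 18.0 with Th2 cytokines, against 422, 29.0 and 17.3 in control cultures. Its log2 difference was 0.92, SE 0.53, adjusted p = 0.405, and 0.49 after centring for M/M cytokines, and -0.77, SE 0.53, adjusted p = 0.753, and -0.99 after centring for Th2 cytokines, where the gap came from experiment 1. Rpl30, of the large subunit, had 114, 126 and 27.3 with M/M cytokines and 68.3, 6.21 and 35.5 in control cultures, a log2 difference of 1.57, SE 0.66, adjusted p = 0.284, and 1.14 after centring. For each of these 4 genes the largest M/M gap was that of experiment 2.

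**Figure D4:**
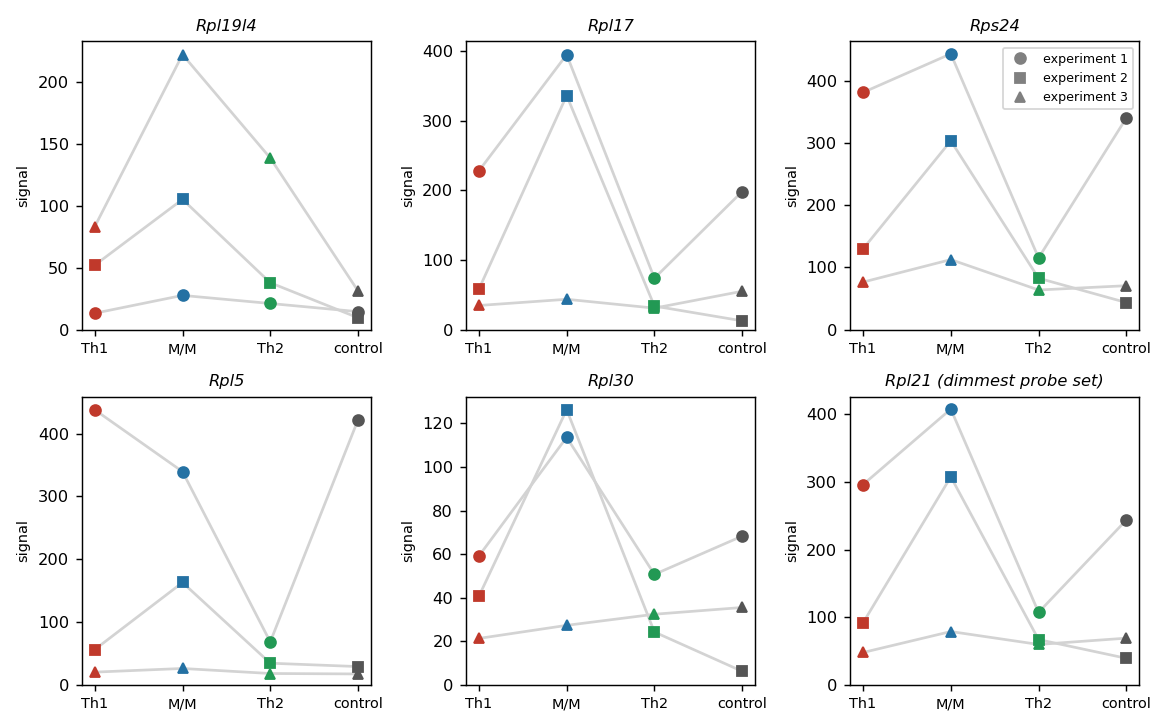
Signal of 6 dim ribosomal protein probe sets with Th1, M/M and Th2 cytokines or in control cultures, with marker shape for the experiment and grey lines joining the arrays of an experiment. Rpl19l4 read highest in experiment 3 (222 with M/M, 31.3 in control cultures), whereas Rpl5 read at most 26.0 there.

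The other dim genes were Rpl3l, a paralog of Rpl3 known from striated muscle, and the pseudogene Rps2-ps1. By its brighter probe set Rpl3l read 24.5 to 64.9 over the arrays, with an M/M log2 difference of 0.34, SE 0.35, adjusted p = 0.636, and -0.086 after centring. Its dimmer probe set read 4.6 to 45.8, with an M/M difference of 0.94. The brighter probe set of Rps2-ps1 read 13.7 to 24.4 in experiments 1 and 2 and 2 to 5.2 in experiment 3, over all groups. Its dimmer probe set read 1.46 to 10, and the Th1 differences were 0.45 for the brighter and -0.071 for the dimmer.

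For 17 genes several probe sets could be set side by side. In 12 of them the brightest and dimmest differed by less than 1 on the log2 scale of signal, and in 11 the differences against control lay within 0.25 of each other for every mixture. The widest gap was that of Rpl21, of the large subunit, with 4 probe sets. Its brightest had 2172, 2195 and 2292 with M/M cytokines and 2402, 1664 and 1513 in control cultures, a log2 difference of 0.28, SE 0.18. Its dimmest, 17.8-fold lower on average, had 408, 308 and 78.8 with M/M cytokines and 244, 39.2 and 69.0 in control cultures, a log2 difference of 1.30, SE 0.45. For Rps15 the dimmest of 3 probe sets was 13.1-fold below the brightest, and Th1 differences spanned -0.42 to 0.075. The 2 probe sets of Rpl13a differed in sign for every mixture. The differences (Th1, M/M, Th2) were 0.10, 0.24 and 0.12 for the brighter and -0.11, -0.21 and -0.26 for the dimmer. A further 38 probe sets carry several symbols that are all ribosomal proteins, their copies or unnamed loci. Limma called 0 of them, and their median log2 differences were 0.056 (Th1), 0.29 (M/M) and 0.12 (Th2), and -0.10, -0.13 and -0.091 after centring.

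The bright genes also differed between experiments. The deposited signals have at most 1 decimal in experiment 3 and 2 decimals in experiments 1 and 2, and whether experiment 3 was processed like the others is not given in the sources used here. Processing and experiment cannot be told apart in the values below. Over the 4 arrays of an experiment, the median log2 difference of experiment 3 minus experiment 1 was -0.40 as deposited. It was -0.80 for all probe sets and -0.49 for the brightest 10 percent of them. Centring turned the median of the bright genes to 0.57, beside 0.17 for all probe sets and 0.48 for the brightest 10 percent. Rpl41, for a very small basic protein, stood apart, with 3209, 3235 and 608 with Th1, 3107, 3040.1 and 976 with M/M and 2917, 2866 and 755 with Th2 cytokines, against 3198, 3081 and 644 in control cultures. In every group its value of experiment 3 was the lowest, its mean there was 4.24-fold lower than in experiment 1, and the log2 difference after centring was -1.11. Rpl39, another very small protein of the large subunit, was 2.57-fold lower (-1.36, and -0.39 after centring). By contrast Rpl3 was higher in experiment 3 by 0.17, and by 1.15 after centring. Rpl41 and Rpl39 were chosen after their values were seen. Within experiments the SD between the 4 arrays had a median of 0.26 over the 43 genes, beside 0.48 over all probe sets and 0.26 over the brightest 10 percent.

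**Figure D5:**
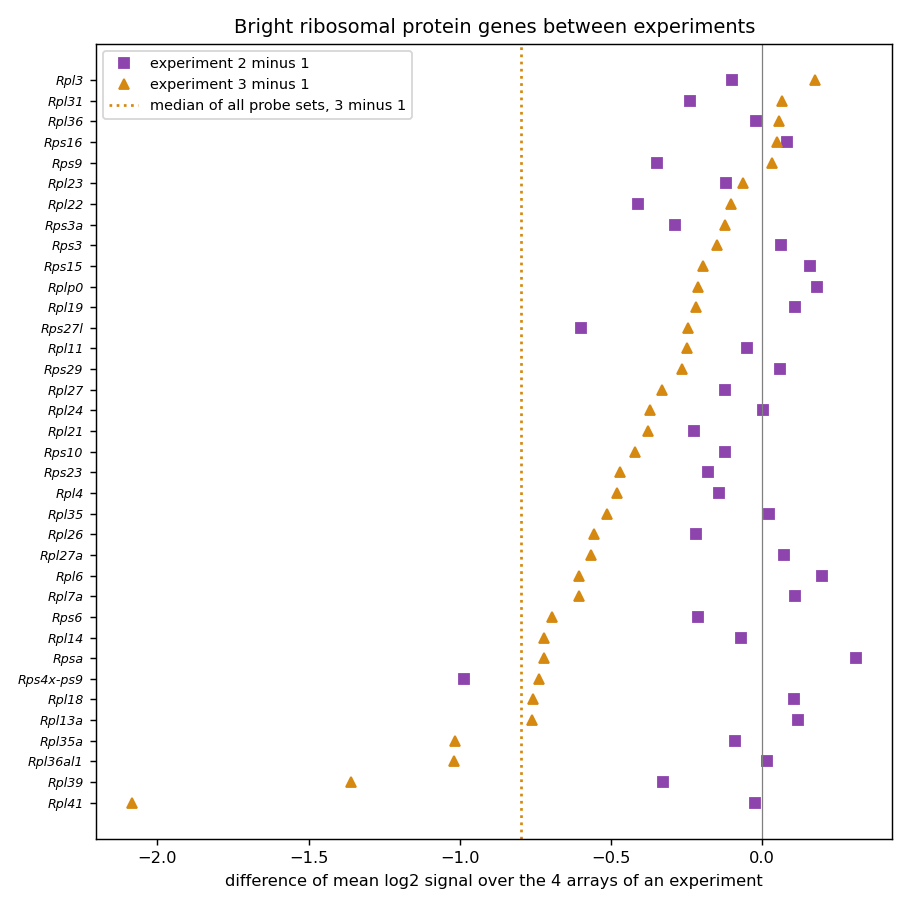
Difference of mean log2 signal between experiments for the 36 bright ribosomal protein genes, each mean over 4 arrays as deposited, with a dotted line at the median of all probe sets for experiment 3 minus 1 (-0.80). Rpl41 lies lowest at -2.08 and Rpl3 highest at 0.17, and the arrays of experiment 3 carry fewer decimals in the deposited values. With centring the median of these genes is 0.57.

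Genes that make and serve ribosomes were taken from lists. Of 12 ribosome assembly genes measured, 0 passed the test in either direction for any mixture. All 12 had mean differences above 0 as deposited for each mixture, against 65.4% (Th1), 78.1% (M/M) and 69.3% (Th2) of all probe sets. After centring 12, 10 and 10 of 12 did, with Ubtf and Polr1d below 0 for M/M and Th2 cytokines, against 47.4%, 41% and 47.4%. The medians (Th1, M/M, Th2) were 0.41, 0.53 and 0.38, and 0.25, 0.11 and 0.17 after centring. Ddx21, a helicase of ribosomal RNA synthesis and processing, had 329, 312 and 237 with Th1, 578, 278 and 321 with M/M and 357, 193 and 329 with Th2 cytokines, against 279, 73.8 and 138 in control cultures. Every treated value exceeded the control value of its experiment, and the groups overlapped. Its M/M difference was 1.39, SE 0.30, adjusted p = 0.074, and 0.96 after centring. Nop58, a core protein of the particles that guide ribosomal RNA methylation, had 128, 196 and 138 with Th1, 254, 213 and 191 with M/M and 192, 142 and 196 with Th2 cytokines, against 101, 70.1 and 110.1 in control cultures. Its M/M difference was 1.25, SE 0.27, adjusted p = 0.075, and 0.82 after centring, and it was chosen after its values were seen. Polr1a, the largest subunit of RNA polymerase I, had the highest Th1 difference, at 1.06, SE 0.77, adjusted p = 0.857, and 0.90 after centring, from a dim probe set at percentile 27.8. It had 8.51, 22.7 and 30.5 with Th1 cytokines and 17.6, 2.07 and 17.7 in control cultures. The Th1 value was below control in experiment 1. Ubtf, which activates the ribosomal RNA genes, had the lowest M/M difference, at 0.052, SE 0.31, adjusted p = 0.944, and -0.38 after centring.

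Of 21 translation factors measured, 0 passed, with medians of 0.17, 0.40 and 0.28, and 0.010, -0.028 and 0.070 after centring. Eef1a2, the elongation factor form of neurons and muscle, had the highest Th1 difference (1.64, SE 0.55, adjusted p = 0.857, and 1.48 after centring), from a dim probe set at percentile 31.4. It had 17.9, 21.7 and 33.3 with Th1 cytokines and 19.5, 3.09 and 7.1 in control cultures. The Th1 value of experiment 1 lay below control. Eif2b2, of the factor that recharges initiation, had the lowest Th2 difference (-0.20, SE 0.19, adjusted p = 0.814, and -0.42 after centring). Rack1, a scaffold on the small subunit, and Naca, which binds new chains at the exit of the large subunit, had M/M differences of 0.39 and 0.39, and -0.036 and -0.035 after centring, and neither passed. Of 12 genes of the S6 kinases and the mTOR pathway 0 passed, with medians of 0.19, 0.37 and 0.20, and 0.035, -0.057 and -0.017 after centring. Rps6kb1, for the kinase that phosphorylates Rps6, had 116, 119 and 53.0 with Th1, 125, 120.3 and 82.6 with M/M and 121, 117 and 44.6 with Th2 cytokines, against 111, 223 and 74.3 in control cultures. It was lowest of the list for Th1 cytokines (-0.45, SE 0.29, adjusted p = 0.857, and -0.61 after centring) and for Th2 cytokines (-0.51, SE 0.29, adjusted p = 0.741, and -0.73 after centring).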

How the data were processed

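RNA was measured on 12 Affymetrix rat arrays, 3 per group. The deposited values are linear intensity signals per probe set, which the authors calculated with dChip, and its settings and any normalization between arrays are not given in the sources used here. Of 8799 probe sets, 59 control probe sets were left out. Signals below 0.1 were set to 0.1 (0 of them from ribosomal protein genes) before log2.

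Limma (version 3.58.1, in R 4.3.3) was fitted over all 12 arrays, with the experiment as a block and a variance trend (6 residual and 6.94 prior degrees of freedom). The Benjamini-Hochberg adjustment covered 8740 probe sets, and the threshold was 0.05. Sample titles pair the arrays of an experiment. Over all probe sets, deviations from the group means correlated at 0.439 to 0.708 within experiments and at -0.625 to 0.357 between them. Over the ribosomal protein probe sets alone they correlated at 0.027 to 0.91 within experiments and at -0.90 to 0.59 between them, so these ranges overlapped. Each gene was represented by its brightest probe set. Scripts were tested on simulated data.

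The genes and lists were chosen with earlier results of these data known. Named genes were the 5 brightest, the 5 dimmest, the 3 highest and 3 lowest differences per mixture, any gene called, Rplp0 and Rpsa, and the 3 genes whose probe sets disagreed most in level or in difference, and from other lists the highest and lowest. Symbols come from the array's annotation, where 7006 probe sets have 1 symbol, 308 several and 1426 none, and start regions from RefSeq (GRCr8). Alternatives were centring, quantile normalization, other rules for low or dim signals, other treatments of the block and of the variance, fits of 2 groups, the screening criteria of the study's methods (a change over 2-fold with p under 0.2 by analysis of variance) and omission of arrays or experiments.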

Additional observations from a re-analysis of the deposited data

How the results depend on the processing

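Centring moved the median differences of the ribosomal protein genes to -0.069 (Th1), -0.090 (M/M) and -0.12 (Th2), whereas quantile normalization kept them above 0, at 0.032, 0.046 and 0.025, beside -0.018, -0.040 and -0.0083 for all probe sets. With an experiment or array left out they ranged from -0.022 to 0.19, 0.13 to 0.47 and -0.011 to 0.20 for the same mixtures. The lowest came without control replicate 3 for Th1 and without replicate 3 for M/M and Th2 cytokines.

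Probe sets called for M/M cytokines numbered 0 to 1 with an experiment or array left out (Rpl19l4, without replicate 1, where 0.801% of all were called, or without control replicate 1, where 0.755% were). They numbered 1, again Rpl19l4 (adjusted p = 0.0428), without the dimmest 25 percent of probe sets, where 0.503% of all were called. Without the replicate block, or with a random one, 0 were called in every comparison, and no call changed. With only 2 groups in the fit and the replicate block 5 of 63 were called for M/M cytokines (Rpl17, Rpl30, Rps24, Rpl19l4 and the dimmest of Rpl21), beside 4.45% of all probe sets. By the methods' screening criteria 1 of 63 passed for M/M, against 6.82% of all, 1 for Th2, against 3.42% (Rpl19l4 in both), and 4 for M/M over Th2 cytokines, against 2.77% (of Rpl17, Rps24, Rpl21 and Rps2-ps1), and 0 after Benjamini-Hochberg adjustment.

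Of 60 differences of named genes, 28 moved with centring and 18 with quantile normalization. Chosen after seeing the data were centring with an experiment or control replicate 2 left out, and medians with several-symbol probe sets added (0.31 for M/M) or of bright genes alone (0.30). The cause of these shifts was not tested, and the number of arrays and the unstated scaling limit every value.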

Other observations

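Mitochondrial ribosomal proteins build the separate ribosome of mitochondria. Of 16 such genes measured 0 passed, with median log2 differences (Th1, M/M, Th2) of 0.20, 0.27 and 0.21, and 0.037, -0.15 and 0.00095 after centring. Mrpl50, of the large mitochondrial subunit, had the highest Th2 difference, at 0.84, SE 0.36, adjusted p = 0.717, and 0.63 after centring by limma. Mrps31, of the small one, had the lowest Th1 difference, at -0.32, SE 0.28, adjusted p = 0.869, and -0.48 after centring.

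Of 9 housekeeping genes measured 0 passed, with medians of 0.20, 0.40 and 0.15, and 0.044, -0.030 and -0.058 after centring. B2m, the light chain of MHC class I molecules, had the highest Th1 and M/M differences, at 1.02, SE 0.37, adjusted p = 0.857, and 0.86 after centring, and 1.09, SE 0.37, adjusted p = 0.22, and 0.67 after centring. Actg1, a cytoplasmic actin, had the lowest of both, at -0.068 and 0.072, and -0.23 and -0.36 after centring. The B2m values differed by experiment. In experiments 1 and 2 its Th1 signals (3081 and 1548) exceeded its M/M signals (1975 and 893). In experiment 3 it read 3338 after M/M cytokines, beside 1050 after Th1 cytokines and 999 in the control culture. The order of the Th1 and M/M signals of Eif2ak2 changed in the same way. The cause of these changes was not tested.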
